A study of Mus musculus with 2 samples.

Results

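The 10 forkhead genes described here are Foxo1, Foxo3, Foxo4, Foxp1, Foxp2, Foxp4, Foxj3, Foxk1, Foxk2 and Foxm1, taken by name from the mouse forkhead family with Foxp3 left out. All 10 were found among the 55536 genes of the gene tables. They were measured in polyadenylated RNA of primary regulatory T cells from a male adult mouse aged 9 weeks, of a strain that the labels spell Foxp3GFP-DTRCD4CreERT2R26tdTomato. That name reads as GFP with diphtheria toxin receptor at Foxp3, a tamoxifen-inducible Cre (CreERT2) under CD4 and tdTomato at R26. The labels named no treatment, and the samples used here form 1 group, with no conventional T cells to compare. The labels gave 2 technical replicate libraries of 1 biological replicate, and they stated neither how the cells were purified nor whether 1 RNA sample served both libraries. With 1 group, levels are described, and any test compares these 2 libraries and covers counting error only.

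Forkhead factors bind DNA through a winged-helix domain whose recognition helix lies in the major groove. The FoxO proteins are phosphorylated by Akt downstream of phosphoinositide 3-kinase, which moves them out of the nucleus, and in T cells they drive genes of quiescence and of homing to lymphoid tissue. Foxo1 and Foxo3 are known to be needed for regulatory T cell development and function. The Foxp proteins pair through a leucine zipper and mostly repress transcription, and Foxp1 is known both for holding naive T cells quiescent and for binding with Foxp3 in regulatory T cells. Foxk1 and Foxk2 recruit Sin3 complexes, and Foxk proteins also bind the deubiquitinase Bap1. Foxm1 drives the genes of the G2 and M phases of the cell cycle, and Foxj3 is a less studied family member.

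The DNA of the recognition helix is shown because it is the feature that marks the forkhead family. The annotated transcripts are also sorted below by whether they code it. Each line gives 72 bases of the sense strand, 5′ to 3′, from the GENCODE M21 transcripts on mm10, and capitals mark the 10 codons of the helix core. It is given for 8 of the members.
Foxo1: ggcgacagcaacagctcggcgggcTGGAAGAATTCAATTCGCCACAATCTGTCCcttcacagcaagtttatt
Foxo3: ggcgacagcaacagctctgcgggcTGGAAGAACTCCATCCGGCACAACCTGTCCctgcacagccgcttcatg
Foxo4: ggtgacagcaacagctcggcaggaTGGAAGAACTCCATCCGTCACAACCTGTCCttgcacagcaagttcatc
Foxp4: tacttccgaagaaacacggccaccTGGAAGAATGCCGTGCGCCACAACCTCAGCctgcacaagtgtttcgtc
Foxj3: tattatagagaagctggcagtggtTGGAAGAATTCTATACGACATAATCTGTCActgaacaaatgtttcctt
Foxk1: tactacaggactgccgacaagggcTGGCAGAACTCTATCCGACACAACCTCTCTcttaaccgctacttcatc
Foxk2: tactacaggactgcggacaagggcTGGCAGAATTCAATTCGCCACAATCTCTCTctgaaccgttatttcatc
Foxm1: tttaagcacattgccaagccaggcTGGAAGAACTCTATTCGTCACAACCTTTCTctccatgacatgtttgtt

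Of the 72 positions, 22 held the same base in all 8 of these members. Over their 28 pairs the identity ran from 51.4%, between Foxp4 and Foxm1, to 87.5%, between Foxk1 and Foxk2. Foxo3 and Foxo4 followed at 86.1%, and Foxo1 matched each of them at 83.3%. In all 8 genes the window was split by an intron after base 30, within the capitals, so the helix is put together from 2 exons. The windows, introns included, lie at chr3:52269393-52345080 (Foxo1, plus strand), chr10:42197860-42274845 (Foxo3, minus strand) and chrX:101255244-101258218 (Foxo4, plus strand). That of Foxp4 lies on the minus strand at chr17:47871310-47874664. Those of the others lie on the plus strand at chr4:119573771-119585791 (Foxj3), chr5:142450358-142451480 (Foxk1), chr11:121290861-121296070 (Foxk2) and chr6:128369456-128370998 (Foxm1).

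The libraries held 20890962 and 18570935 rounded counts in genes. All 6 regulatory T cell markers were detected, from Foxp3 at a mean TPM of 86.1 to Cd3e at 1239. TPM is transcript abundance scaled for length and depth, and a gene counts as detected where each library gave it at least 1 TPM. Of markers of other cells, 1 of 2 CD8 T cell, 2 of 5 B cell, 4 of 5 myeloid, 2 of 3 natural killer cell and 3 of 4 erythroid genes were detected. The highest among them were Hbb-bs at 73.1, Cd79b at 32.6 and Cd8b1 at 24.1, while of 4 endothelial or epithelial genes only Epcam was detected, at 2.03. What part such cells had in the forkhead levels was not tested, and fewer cells of a type cannot be told apart from less RNA per cell in such a bulk sample.

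Foxp1 was by far the most abundant of the 10, and 8 of the 10 were detected. The exceptions were Foxm1, which reached the level in technical replicate 2 alone, and Foxp2, which reached it in neither library. Over all genes 23.4% were detected, and over protein-coding genes 47.5%. By mean TPM the order was Foxp1, Foxo1, Foxj3, Foxp4, Foxo4, Foxo3, Foxk2, Foxk1, Foxm1 and Foxp2. Foxo1 and Foxj3 exchanged places between the libraries, as did Foxk2 and Foxk1, and in both pairs the difference of the means was below the larger SD. The other 7 pairs of neighbours kept their order and differed by more than the larger SD of the pair.

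**Figure D1:**
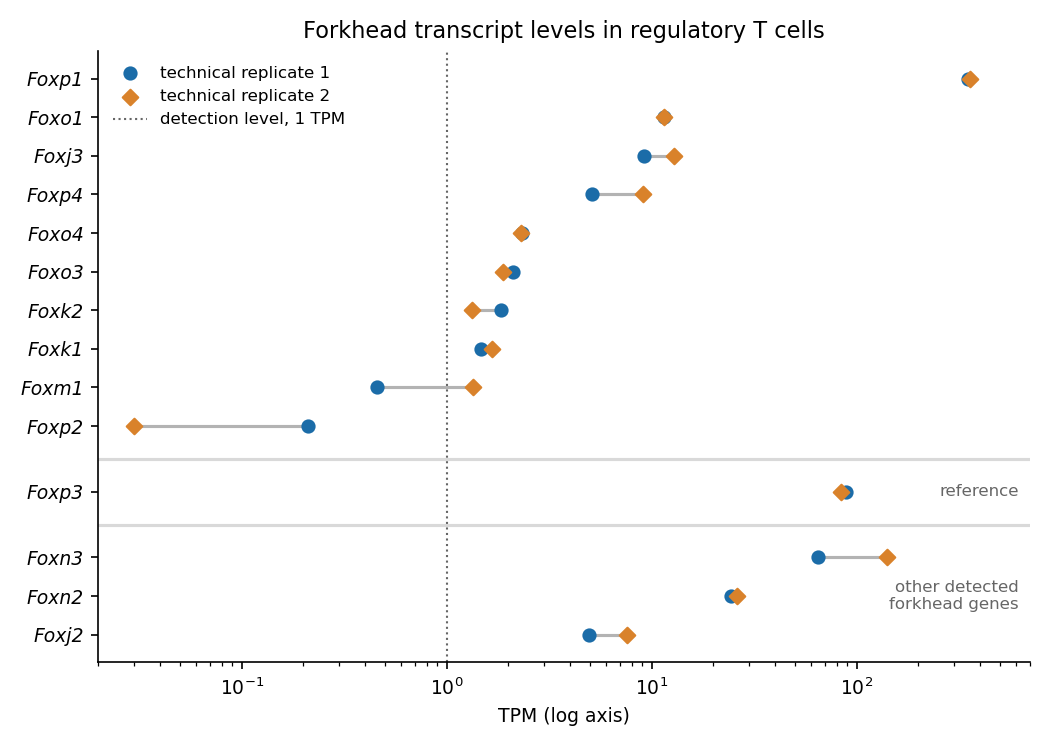
TPM on a log axis for each of the 10 members, with Foxp3 and the other detected forkhead genes below; circles are technical replicate 1, diamonds technical replicate 2, and the dotted line marks a TPM of 1. Foxp1 lies at 351 and 356 TPM, to the right of Foxp3 and of the 3 other detected forkhead genes, while Foxm1 spans the detection level and Foxp2 lies below it.

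Foxo1 (ENSMUSG00000044167.6, chromosome 3, 52268336 to 52353221, plus strand, mm10) had a TPM of 11.5 in each library, from 1399 expected counts in the first technical replicate and 1183 in the second. Its mean was 11.5 ± 0.0212 (SD, n = 2 technical libraries), so the libraries were nearly alike. Foxo4 (ENSMUSG00000042903.8, chromosome X, 101254528 to 101260873, plus strand) had 2.32 and 2.31 TPM from 96 and 81 counts. Foxo3 (ENSMUSG00000048756.11, chromosome 10, 42181841 to 42276755, minus strand) had 2.11 and 1.88 TPM from 168 and 153 counts. Among the Akt-regulated FoxO genes, Foxo1 was therefore the highest in both libraries, at 5.45 and 6.10 times the TPM of Foxo3 and 4.96 and 4.97 times that of Foxo4. Foxo6, the remaining FoxO gene, held 0 counts in both libraries.

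Foxp1 (ENSMUSG00000030067.17, chromosome 6, 98925338 to 99522721, minus strand) had 351 and 356 TPM from 9979 and 8448 counts. Its mean of 353 ± 3.87 TPM ranked 439th and 427th among all genes. In TPM it exceeded Foxp3 by 3.96 and 4.26 times, and it made up 91.1% and 89.5% of the summed TPM of the 10 members. Foxp4 (ENSMUSG00000023991.16, chromosome 17, 47867133 to 47924645, minus strand), which can pair with Foxp1, had 5.13 and 9.08 TPM from 207 and 299 counts, and its deposited credibility bounds did not overlap between the libraries. Foxp2 (ENSMUSG00000029563.16, chromosome 6, 14901349 to 15441977, plus strand), best known from neurons, had 0.210 and 0.0300 TPM from 10 counts and 1 count. A count of 0 would allow up to 3 counts, which are 0.0630 and 0.0900 TPM of Foxp2, so technical replicate 2 lay below that floor and technical replicate 1 above it.

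Foxj3 (ENSMUSG00000032998.16, chromosome 4, 119537004 to 119629119, plus strand) had 9.20 and 12.8 TPM from 505 and 676 counts. Foxp4 and Foxj3 were the members, 2 of 10, whose gene-level credibility bounds did not overlap between the libraries. Over the genes with a TPM above 0 the share was 12.2%. Foxk1 (ENSMUSG00000056493.9, chromosome 5, 142401497 to 142462011, plus strand) had 1.47 and 1.67 TPM from 153 and 134 counts. Foxk2 (ENSMUSG00000039275.9, chromosome 11, 121259990 to 121309896, plus strand) had 1.85 and 1.33 TPM from 113 and 79 counts. Neither Foxk gene was above the other in both libraries. Foxm1 (ENSMUSG00000001517.14, chromosome 6, 128362967 to 128376146, plus strand) had 0.460 and 1.34 TPM from 30 and 43 counts. Its TPM differed 2.91-fold between the libraries while its scaled counts differed 1.68-fold. The transcript length deposited for it was 4652 bases, then 2738 in technical replicate 2.

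The lead of Foxp1 over the others depended in size on the length its reads were divided by, though it led under every measure tried. The deposited gene length of Foxp1, a mean weighted by transcript abundance, was 2065 and 2031 bases. Its longest coding transcript has 7177 bases and its exons joined have 13751. Foxp1 had 30.5 and 31.0 times the TPM of Foxo1. Per base of the longest coding transcript the ratio was 8.61 and 8.62, and per base of all exons joined it was 4.49 and 4.50. Against Foxp3 the ratio of TPM, 3.96 and 4.26, became 2.62 and 2.82 by the longest coding transcript and 1.63 and 1.75 by all exons. The share of Foxp1 in the sum of the 10 members was 76.6% and 72.6% by the longest coding transcript, and 67.7% and 64.2% by all exons. The place of Foxj3 depended on the length too. By all exons Foxo1 had 3.51 and 2.22 times its level, and the means of Foxj3 and Foxp4 were 8.21 and 7.86. These measures were added after the data were seen.

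**Figure D2:**
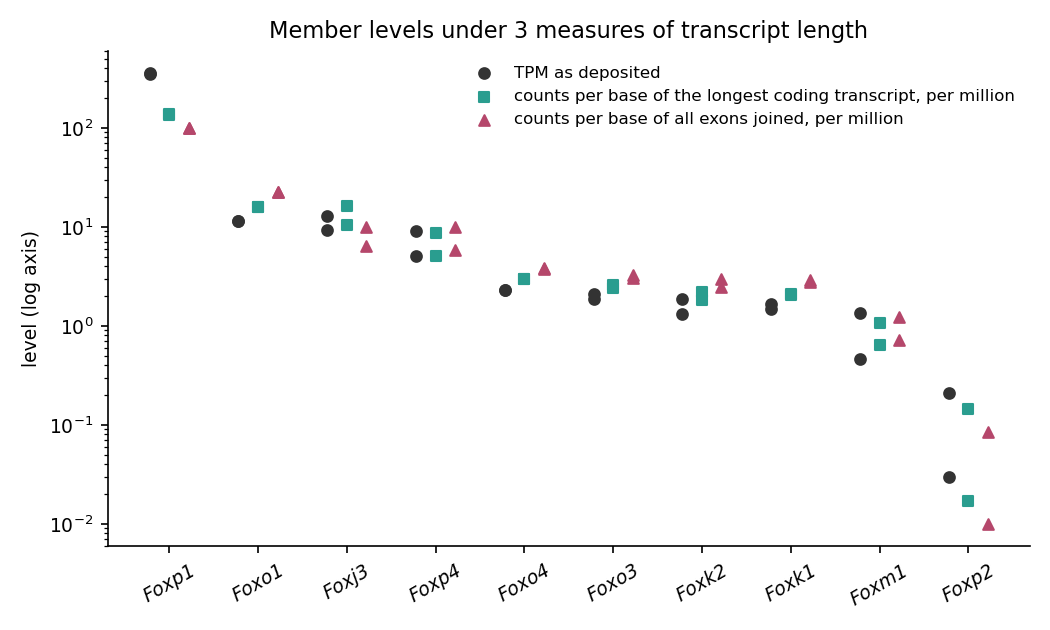
Level of each member in both libraries (2 points of each kind, log axis) as deposited TPM, as counts per base of the longest coding transcript, and as counts per base of all exons joined, the last 2 scaled to the same sum over all genes as TPM. Foxp1 is highest under each measure, but its distance from Foxo1 shrinks from 30.5 to 8.61 and 4.49 times in technical replicate 1.

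Reads of Foxp1 could also be shared with other annotated genes. Its exons overlap 300 bases of Gm20696 and 135 bases of Gm49348 on the same strand. Gm20696 held 518 and 512 counts and Gm49348 held 51.7 and 21.6, against 9979 and 8448 for Foxp1. Exons of Foxo1 overlap an antisense gene, Gm20402, and those of Foxm1 overlap Tex52 and Gm44596, all with 0 counts in both libraries.

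The 10 genes have 91 annotated transcripts, of which 57 are protein coding and 36 code the recognition helix. A TPM above 0 in both libraries was given to 37 transcripts, and 36 were at 0 in both. Transcript values are estimates from reads that several transcripts can share, and for none of the 91 were the credibility bounds apart between the libraries. That share was 6.40% over all transcripts with a TPM above 0 in either library, a set that leaves out transcripts like the 36 at 0. A share of at least 10% of the gene's abundance in both libraries was reached by 16 of the 91.

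Transcripts that code the helix took all of the Foxo1 TPM, which has a single annotated transcript, Foxo1-201. They took 91.8% and 91.3% of the TPM of Foxo4 and 78.8% and 100% of that of Foxo3. The rest of Foxo3 in technical replicate 1 was Foxo3-202, a shorter coding model with 7.97 counts that was at 0 in technical replicate 2. Foxk1 had 100% and 89.8% of its TPM in such transcripts and Foxk2 had 85.9% and 100%. In both Foxk genes the remainder rested on a single short model with 1.29 counts for Foxk1-202 and 1.51 for Foxk2-203. Foxm1 had 100% and 64.7%, and in technical replicate 2 the retained intron Foxm1-206 took 23.9% of its abundance from 2.95 counts.

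In Foxp1 the helix-coding transcripts took a smaller share, 53.9% and 55.8% of TPM, but 79.8% and 81.0% of counts. In TPM they summed to 189 and 199, which is still above Foxp3. Retained introns took 17.0% and 15.2% of the TPM of Foxp1. Coding models annotated as incomplete held a further part, Foxp1-218 with 14.5% and 14.0% and Foxp1-223 with 9.03% and 7.69%. Such models lack the helix as annotated, which does not show whether the full transcript codes it. In Foxp4 the helix-coding share was 78.8% and 73.5%, and in Foxj3 it was 77.9% and 88.1%. In Foxp2 it was 23.8% and 0%, from 3.65 counts of Foxp2-201 in technical replicate 1.

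**Figure D3:**
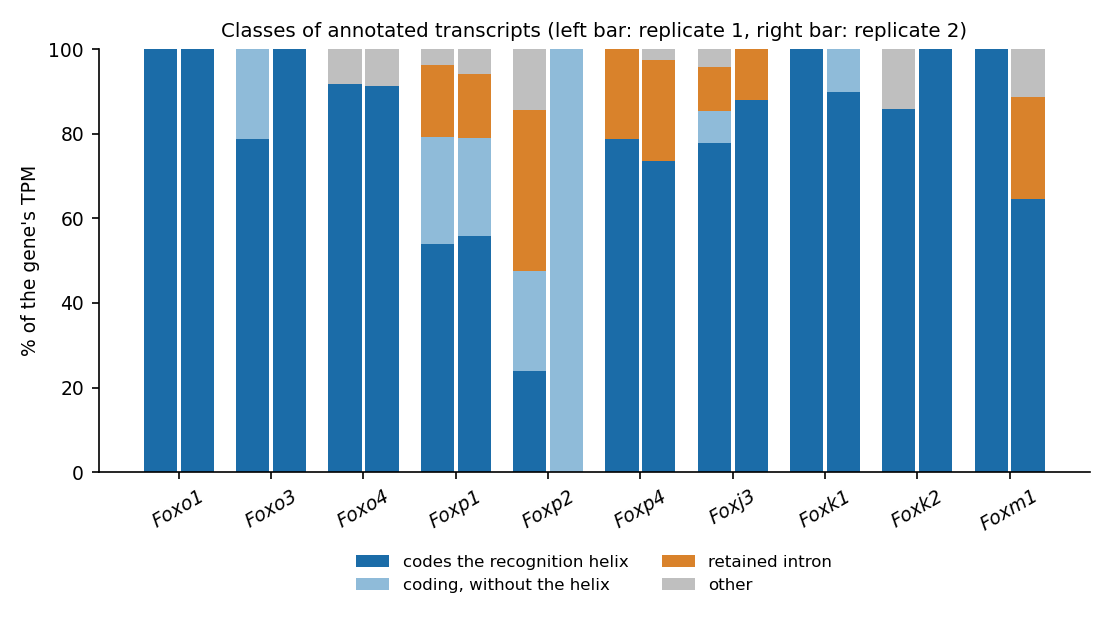
Stacked bars give the percent of each gene's TPM by class of annotated transcript, with technical replicate 1 on the left of each pair and technical replicate 2 on the right. Foxp1 has a helix-coding share of 53.9% and 55.8%, below that of the other detected members, and Foxp2 rests on 10 counts and 1 count. Coding models without the helix include some annotated as incomplete.

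The 31 annotated transcripts of Foxp1 were led by Foxp1-228, a coding model with 21.1% and 21.8% of the gene's abundance (73.8 and 77.6 TPM). Foxp1-230, which starts farther downstream and also codes the helix, had 12.3% and 14.98%. Foxp1-218, a short coding model of 607 bases that is annotated as incomplete and lacks the helix, had 14.5% and 14.0%. The retained intron Foxp1-211 had 12.2% and 11.1%. Those 4 were the transcripts of Foxp1 at or above 10% in both libraries. The full-length models were less settled: Foxp1-206 had 1627 and 80.1 counts in the libraries, while Foxp1-204 had 1453 and 2315. Their bounds overlapped, since those of Foxp1-206 ran up to 23.0 and 17.3 TPM.

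Annotated starts of Foxp1 fall into 13 clusters more than 1000 bases apart. The farthest upstream cluster had 0% and 0.166% of the TPM, and the next 2 had 0. The cluster of 3 helix-coding models 87.4 kb downstream of the farthest start had 11.9% and 11.8%. The cluster 256 kb downstream had 19.2% and 14.8%, and that at 360 kb, a set of models which includes Foxp1-228, had the highest share of TPM at 22.8% and 25.1%. Of the 2121 bases of Foxp1-228, 2118 are coding, so its annotated start is the point where coding begins. A cluster at 494 kb, which holds Foxp1-230, had 16.4% and 19.97%. Shares of counts, which are not divided by length, ranked otherwise: the cluster at 256 kb led technical replicate 1 with 25.4%, against 23.5% at 360 kb, and that at 87.4 kb led technical replicate 2 with 32.2%, against 26.3%. The reads behind such shares do not mark start sites, as they come from the whole of each sheared transcript.

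Foxp1 and Foxp4 each have exons that start at either of a pair of positions 3 bases apart, so that a CAG triplet is kept or left out. The junctions are shown because the forms differ in those letters alone. Each line gives the end of the upstream exon and the start of the downstream exon in the longer form, with the optional triplet in capitals.
Foxp1, 90-base exon: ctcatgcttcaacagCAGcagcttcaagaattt
Foxp1, 80-base exon: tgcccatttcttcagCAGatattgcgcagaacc
Foxp4, 214-base exon: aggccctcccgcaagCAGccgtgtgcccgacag

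In Foxp1 the form with CAG led at both exons and its share differed little between the libraries. It took 68.4% and 67.6% of the TPM across the 90-base exon (chr6:99015424-99015513). Across the 80-base exon (chr6:98945347-98945426) it took 61.1% and 60.9%. The form without CAG there rested on Foxp1-228 alone, so this share follows the estimate for that model. In Foxp4 the form with CAG took 56.9% and 50.9% at the 214-base exon (chr17:47878284-47878497). Foxm1 has an optional CAG of this kind too, at a 73-base exon. The form with it took 0% and 27.9% there, the latter from 3.37 counts of Foxm1-207. A further Foxp1 exon has forms of 192 and 96 bases (chr6:99075854-99076045 for the longer), and there the longer form took 76.3% and 90.4%. These shares were summed over annotated transcript models that differ elsewhere too, so they are estimates and not counts of junction reads.

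**Figure D4:**
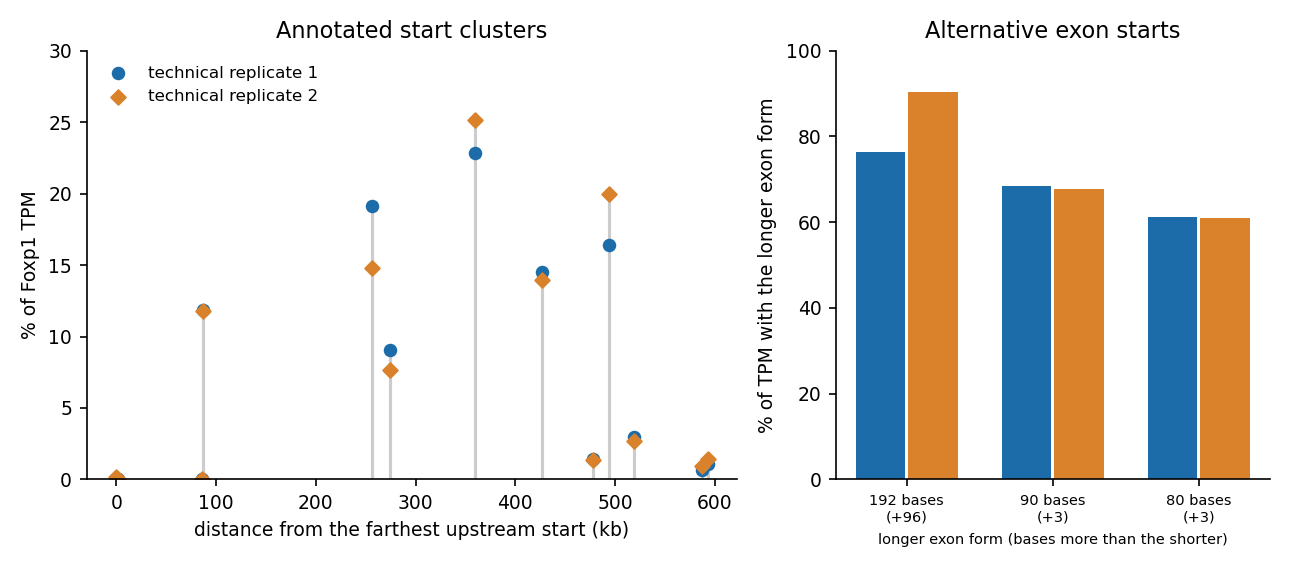
Left, the percent of Foxp1 TPM in each of its 13 annotated start clusters against the distance from the farthest upstream start; right, the percent of TPM with the longer form of 3 exons (blue, technical replicate 1; orange, technical replicate 2). The cluster at 360 kb has the highest share of TPM, 22.8% and 25.1%, and the 3-base alternatives differ less between the libraries than the 96-base one.

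Foxp4 was led by Foxp4-204 with 33.9% and 36.1% and Foxp4-202 with 44.8% and 20.8%. Foxp4-201, a further helix-coding model, had 0% and 16.6%. In Foxj3 the coding models Foxj3-201 and Foxj3-202 changed places. Foxj3-201 had 15.3% and 46.7% of the abundance and Foxj3-202 had 60.7% and 39.8%, but the bounds of Foxj3-201, 0.384 to 3.28 TPM and 2.98 to 8.48 TPM in the first and the second library, still overlapped.

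The libraries were then compared gene by gene to see how far the values above hold between them. Foxp4 and Foxj3 were higher in technical replicate 2 and Foxp2 was lower, while the other 7 members were not called. Of all 16553 genes tested, 34.7% were called, 21.6% higher and 13.0% lower, so 3 of 10 is near the background. Of these calls 62.4% were higher, against 54.1% by DESeq2 size factors and 47.9% by unscaled library totals. The median log2 ratio (technical replicate 2 over technical replicate 1) was 0.02 over the 10 members and 0.02 over all genes tested. Adjusted p-values are from the exact binomial test with Benjamini-Hochberg adjustment over all genes tested.

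Foxj3 had a log2 ratio of 0.65 ± 0.08 (counting SE) and an adjusted p of 1.07e-13 in the exact test. Foxp4 had a log2 ratio of 0.76 ± 0.13 and an adjusted p of 3.22e-08 in the exact test. The transcripts of Foxp4 had a GC content of 63.5%, the highest of the members, and those of Foxj3 had 45.6%, with a median of 49.4% over the genes tested. With the trend of the log2 ratios over GC content removed, Foxp4 had a log2 ratio of 0.16 and was not called (adjusted p = 0.366, exact test), while Foxj3 stayed at 0.64 and was called.

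Foxp2 was called lower on 10 counts against 1. The scaled ratio was 0.118, with an exact 95% interval from 0.00271 to 0.826, and the adjusted p of the exact test was 0.0431. It was not called when genes with 1 count were tested as well (adjusted p = 0.0722, exact test) or with the GC trend removed (adjusted p = 0.0764, exact test). Foxm1, with a log2 ratio of 0.75 ± 0.34, was not called (adjusted p = 0.0878, exact test).

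For Foxp1 and Foxo1 the libraries differed little. Foxp1 had a log2 ratio of -0.01 ± 0.02 and a scaled ratio of 0.995 (exact 95% interval 0.967 to 1.02), and Foxo1 had a log2 ratio of -0.01 ± 0.06 (interval 0.919 to 1.07). Neither was called, with adjusted p-values of 0.878 and 0.955 in the exact test. Scaling by total counts moved Foxp1 to -0.07, which was called lower (adjusted p = 0.00354, exact test), as was its value of -0.07 with the GC trend removed (adjusted p = 0.00627, exact test). Over all genes 38.9% were called with total counts and 34.9% with the GC trend removed, and the members called were 4 and 2. The intervals were wider for the low members: 0.854 to 1.34 for Foxo3, 0.729 to 1.35 for Foxo4, 0.810 to 1.31 for Foxk1 and 0.609 to 1.11 for Foxk2. In the newer gene table no difference was detectable for those 4 at this depth.

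An assumed spread between libraries beyond counting error lowered the calls. With edgeR's exactTest at an assumed dispersion of 0.01 (a coefficient of variation of 0.1) Foxp4 and Foxj3 were still higher and Foxp2 was not called, against 10.8% called over all genes. At 0.04 (a coefficient of variation of 0.2) exactTest called 0 members, against 0.707% of all genes. That spread could not be estimated from 1 library against 1.

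**Figure D5:**
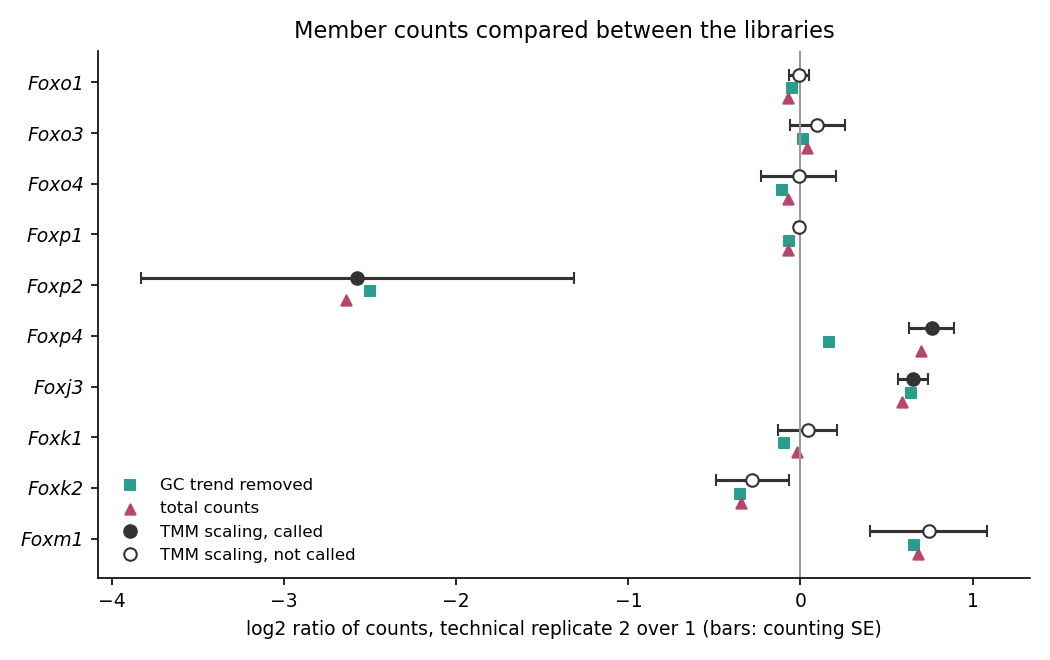
Log2 ratio of counts, technical replicate 2 over technical replicate 1, for each member with TMM scaling (circles with the counting SE, filled where called), with the GC trend removed (squares) and with total counts (triangles). Foxp4 and Foxj3 lie to the right at 0.76 and 0.65, and removing the GC trend moves Foxp4 to 0.16 and leaves Foxj3 at 0.64.

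A second set of gene counts, on the older GENCODE M4 annotation, gave smaller numbers for every member. The pairs of older counts, with technical replicate 1 given first, were 3143 and 2936 for Foxp1, 382 and 397 for Foxo1, and 142 and 215 for Foxj3. They were 106 and 161 for Foxp4 and 2 and 0 for Foxp2. Taken over both libraries they came to 33.0% of the newer counts for Foxp1, 30.2% for Foxo1 and for Foxj3, and 52.8% for Foxp4. The lowest shares were 10.2% for Foxo4, 10.5% for Foxk1 and 10.9% for Foxo3. Across 9155 protein-coding genes this share rose with the coding share of the longest coding transcript, with a Spearman rho of 0.621. The points are genes of the same 2 libraries and are not independent. The median was 21.3% where under 20% of the transcript was coding and 74.0% where over 80% was. Foxo4, 47.9% coding, lay far below the median of 46.8% for coding shares of 40 to 60%, while Foxp4, 50.4% coding, lay above it. Foxk1 and Foxo3, 29.0% and 29.4% coding, lay far below the median of 33.0% for 20 to 40%. Foxp1, 29.5% coding, was close to that median. What lowered the 3 lowest shares was not tested.

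In the older table Foxp4 and Foxj3 were again higher in technical replicate 2, at log2 ratios of 0.71 (adjusted p = 0.000452, exact test) and 0.71 (adjusted p = 3.96e-05, exact test). That table draws on the same libraries and adds no replicate. Foxo3 was also called there, with 8 and 27 counts, a log2 ratio of 1.81 and an adjusted p of 0.00325 in the exact test, against 0.10 ± 0.16 in the newer table. The share called there was 27.1% of the genes tested.

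Regulators upstream of the FoxO proteins were nearly all present. Of 32 such genes, 31 were detected, 11 were higher in technical replicate 2 and 7 lower, beside 21.6% higher and 13.0% lower over all genes tested. Their median log2 ratio was 0.01, against 0.02 over all genes tested. The most abundant was Ywhaz, a 14-3-3 protein that holds phosphorylated FoxO in the cytoplasm, at 752 ± 6.15 TPM. Pik3cd, the catalytic subunit of the lymphocyte phosphoinositide 3-kinase, had 329 ± 6.11 TPM, and Stk4, a kinase of the Hippo pathway that can phosphorylate FoxO, had 255 ± 2.37. Their log2 ratios were 0.05, -0.01 and 0.04, of which only that of Ywhaz was called (adjusted p = 0.000338, exact test). The called genes with the largest ratios were Pik3cb at 0.87 ± 0.19 and Pik3ip1, an inhibitor of the kinase, at 0.75 ± 0.04.

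All 20 genes of a list of FoxO targets in T cells were detected, of which 9 were higher, 5 lower and 6 not called, with a median log2 ratio of 0.09. Over all genes tested 34.7% were called, and both this list and the upstream regulators lay above that share. The share depends on counts: with only genes of at least 100 counts tested, 48.1% were called. Whether either list exceeds genes of like counts was not tested. Ccr7, a chemokine receptor for lymph node entry, had 510 and 450. S1pr1, the receptor for exit from lymphoid tissue, had 317 and 348 TPM. Ccr7 was lower in technical replicate 2, at a log2 ratio of -0.19 ± 0.02, and S1pr1 was higher at 0.13 ± 0.02. The largest ratios were those of Gadd45a, a stress-response gene, with 6.52 and 16.2 TPM and 1.25 ± 0.18, and Ccng2, a cyclin linked to quiescence, with 24.3 and 51.0 TPM and 0.98 ± 0.06. Called targets lay on both sides, and a link to Foxo1 was not tested, as these are technical libraries of 1 biological replicate.

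Most genes of the Foxm1 programme were detected at low levels. Of 22 Foxm1 and G2-M genes, 21 were detected, with a median of the mean TPM of 6.11, and 4 were higher, 0 lower and 18 not called by the exact binomial test. The 4 higher genes were near the 21.6% higher over all genes tested. The phosphatase gene Cdc25b led at 83.3 ± 1.34 TPM, followed by Birc5, which encodes survivin, at 14.4 ± 1.05 and the topoisomerase gene Top2a at 13.3 ± 0.361. Nek2, a centrosome kinase, and Cdc20, an activator of the anaphase-promoting complex, had the largest ratios among the called, at 1.18 ± 0.32 and 0.99 ± 0.15. Of the 6 partners of Foxm1 in the MuvB and B-Myb complex all were detected. Rbbp4 had 292 ± 20.6 TPM, Lin37 92.1 ± 3.49, Lin52 20.1 ± 1.02, Lin9 17.1 ± 0.269, Lin54 11.1 ± 1.24 and Mybl2 2.76 ± 0.382. Lin37 was called lower, at -0.18 ± 0.06 (adjusted p = 0.0185, exact test), and the other 5 were not called.

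All 12 co-repressor genes reported with Foxp factors were detected, 4 higher, 2 lower and 6 not called, with a median log2 ratio of 0.07, beside 34.7% called over all genes tested. Hdac1, a histone deacetylase, had 302 and 303 TPM, and the histone-binding proteins Rbbp4, which is on the MuvB list too, and Rbbp7 had means of 292 ± 20.6 and 236 ± 18.9. The largest ratios were those of Mta2, a subunit of the NuRD complex, with 104 and 228 TPM and 1.18 ± 0.03, and of Hdac2, with 10.7 and 21.1 TPM and 1.13 ± 0.11. Of 15 genes of complexes reported with Foxk factors, 14 were detected and tested, 4 were higher and 1 was lower, which is near that share. Ogt, which adds N-acetylglucosamine to proteins, had 290 ± 2.28 TPM, the co-repressor gene Sin3b 214 ± 16.5 and Bap1 84.8 ± 10.8. Sin3b was the lower gene, at -0.10 ± 0.03, and Dvl2, a Dishevelled protein that Foxk proteins carry into the nucleus, and Asxl2, a partner of Bap1, were the called genes with the largest ratios, at 0.69 ± 0.08 and 0.21 ± 0.03.

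The direction of the calls in these lists depended on the scaling. With total counts, under which 38.9% of all genes tested were called, the regulators upstream of FoxO had 9 genes higher and 12 lower, the co-repressors 4 and 4, and the Foxk complexes 3 and 3. The FoxO targets had 8 and 6, and the Foxm1 and G2-M genes kept 4 and 0. With exactTest at a dispersion of 0.01, 10.8% of all genes tested were called, and 86.2% of those calls were higher. Under it the FoxO targets had 6 genes higher and the upstream regulators and the co-repressors 4 each. The Foxm1 and G2-M genes had 2 and the Foxk complexes 1, with 0 lower in any list.

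Of the other 33 forkhead genes in the tables only Foxn3, Foxn2 and Foxj2 were detected, and all 3 were called higher in technical replicate 2, beside 21.6% of all genes tested. With exactTest at a dispersion of 0.01 only Foxj2 was still called. Foxn3, a repressor linked to cell cycle checkpoints, had 65.0 and 141 TPM from 2959 and 3299 counts, so its TPM moved more than its log2 ratio of 0.39 ± 0.04. The deposited length of Foxn3 fell from 3272 bases to 2000 between the libraries. Foxn2 had 24.4 and 26.1 TPM with a log2 ratio of 0.24 ± 0.06, and Foxj2 had 4.94 and 7.58 TPM with 0.67 ± 0.10. In TPM, Foxp1 was above all 3 in both libraries.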

How the data were processed

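RNA of 1 biological replicate was read as 2 technical libraries, grouped by the labels alone. The authors deposited gene and transcript tables on mm10 with GENCODE M21, per the descriptions beside them; aligner and quantifier are not given in the sources used here. Expected counts as deposited are estimated reads and need not be whole, so they were rounded for tests. TPM and FPKM as deposited are scaled for length and depth. The deposited posterior mean TPM, a signal, carries 95% credibility bounds, which need not hold the TPM. The percent of a gene taken by each transcript was also deposited. Older whole-number counts on GENCODE M4 were deposited too. Rows naming no gene (0.307% and 0.242% of counts) were left out.

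Members and lists were chosen with earlier results of these data known. Named genes followed a written rule: all members, and in each list the 3 of highest mean TPM and the 2 called with the largest ratio, or all in a list under 8. Some items that the rule covers are not reported here. Libraries were compared with a two-sided exact binomial test per gene (SciPy 1.17.1) over genes with at least 10 counts, with edgeR 4.0.16 TMM factors of 1.02 and 0.978 and Benjamini-Hochberg at 0.05. A quasi-likelihood fit in edgeR was not possible, for want of residual degrees of freedom. Log2 ratios add 0.5 to each count. The test was checked on data simulated with counting error only, so that check does not cover spread between libraries beyond counting error. GC content of transcripts was weighted by TPM and its trend found with lowess (fraction 0.3). DESeq2 1.42.0 size factors were an alternative. Intervals and floors cover counting error only.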

Additional observations from a re-analysis of the deposited data

How the results depend on the processing

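Of the 10 members, 8 reached 1 TPM in each library, against 5 that reached 2 TPM and 2 that reached 10 TPM. Leaving out technical replicate 1 gave 9, and leaving out technical replicate 2 gave 8. Posterior mean TPM, which gave Foxp2 a mean of 1.83 and Foxm1 1.68, gave 10, and FPKM gave 6. The 3 members called by the exact binomial test became 0 with exactTest at an assumed dispersion of 0.04, with 2 to 4 called under the other settings. The pathway lists held 47 called genes, which became 16 and 0 with exactTest at dispersions of 0.01 and 0.04, against 48 to 53 under DESeq2 size factors, total counts and GC correction. Transcripts at 10% or more in both libraries numbered 16 by the deposited share, 25 by the share of posterior mean TPM, and 21 with either library left out. No called log2 ratio of a member changed sign. Low counts limit Foxp2, Foxm1, Foxo4 and Foxk2, each with under 200 counts over both libraries. No paired analysis was possible because the labels gave a single group.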
